A study of Morchella importuna with 4 samples.

Results

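Of the 11599 genes measured in Morchella importuna, a morel mushroom that forms sclerotia in culture, 3 are annotated as a putative chaperone or heat shock protein Hsp12: JGI 608569, JGI 506898 and JGI 519550. JGI numbers are the gene models of the fungal genome portal that the deposited table uses. The 3 genes were chosen by this description after their high FPKM in the sclerotial libraries were known, so their levels and differences between the areas are given as a description, with no test.

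The study compared 2 areas of the same plates by paired-end RNA sequencing. SII was the sclerotial area in the plate centre, and SIO was the hyphal area at the margin, both at sclerotial initiation. Every sample came from 1 strain on potato dextrose agar (PDA) at 20 °C in the dark, collected at day 4, with tissue of 2 plates pooled per sample and 2 samples per area. The labels name no marker gene for either kind of cell, so the areas go by their labels, and a pooled area can hold cells of both kinds. The reads assigned to genes, as recovered from the values, came to 23108142 to 24841181 per library in SII and 27579812 to 27993281 in SIO.

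Hsp12 is best known from Saccharomyces cerevisiae, where it is a small hydrophilic protein that is largely unfolded in solution, takes on helical structure at membranes and helps to keep the plasma membrane stable. In that yeast its gene is among the most strongly induced by heat, osmotic and oxidative stress and by entry into stationary phase. Its transcription there is raised by the zinc finger factors Msn2 and Msn4, by heat shock factor and by the Hog1 kinase pathway, and is held down by cAMP-dependent protein kinase. These roles are from yeast and were not measured in the morel.

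The best protein database matches given for the 3 genes are hypothetical proteins of different fungi. JGI 608569 matched one of Paracoccidioides brasiliensis, JGI 506898 one of Tuber melanosporum, a truffle and the nearest relative of the morel among these species, and JGI 519550 one of Penicillium oxalicum. The exon lengths recovered from the values were 607 bp for JGI 608569, 661 bp for JGI 506898 and 691 bp for JGI 519550.

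Primers that the study designed for measuring transcripts of JGI 608569 and JGI 519550 are shown because they fix which transcripts the names stand for. All 4 have 17 bases, and their order is 5′ to 3′, with S for the sense and A for the antisense primer.
Hsp608569-S: tctaccgctcagaagct
Hsp608569-A: ttgtcaattggaccctc
Hsp519550-S: actcccgaccactccaa
Hsp519550-A: ctggtggtccttctcgc
The 2 pairs differ in base composition. GC content was 52.9% and 47.1% in the pair for JGI 608569, and 58.8% and 64.7% in the pair for JGI 519550. No primer for JGI 506898 was used here.

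All 3 genes had very high transcript levels in both sclerotial libraries and modest ones in both hyphal libraries. JGI 608569 had 8043 and 7283 FPKM in SII replicates 1 and 2, against 18.6 and 26.4 FPKM in SIO replicates 1 and 2. It averaged 7663 ± 537 FPKM in the SII libraries and 22.5 ± 5.52 FPKM in the SIO libraries (SD, n = 2 each), a ratio of 341. Every SII library lay far above every SIO library, the lowest ratio between a pair of libraries being 276 and the highest 433. FPKM counts fragments relative to the length of the transcript and the depth of the library, so these levels can be compared between genes. In bulk samples of this kind, fewer cells that express a gene and less RNA per cell cannot be told apart.

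JGI 519550 had 7475 and 5854 FPKM in SII replicates 1 and 2, against 32.5 and 40.4 FPKM in SIO replicates 1 and 2. Its means were 6664 ± 1146 FPKM for SII and 36.4 ± 5.61 FPKM for SIO (SD, n = 2), a ratio of 183. It was the Hsp12 gene with the highest level in the hyphal area. JGI 506898 had 4096 and 2931 FPKM in SII replicates 1 and 2, against 16.1 and 20.3 FPKM in SIO replicates 1 and 2. Its means were 3513 ± 823 FPKM for SII and 18.2 ± 2.91 FPKM for SIO (SD, n = 2), a ratio of 193. It had the lowest level of the 3 genes in each of the 4 libraries.

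**Figure D1:**
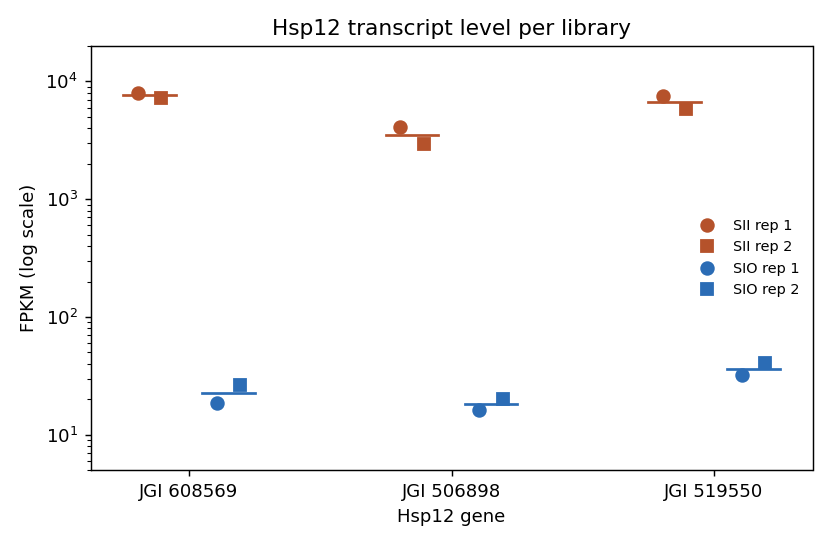
FPKM of the 3 Hsp12 genes on a log axis. Points are libraries (circles for replicate 1, squares for replicate 2), and lines are the means of the 2 SII libraries (left) and of the 2 SIO libraries (right) of each gene. The SII points lie between 2931 and 8043 FPKM and the SIO points between 16.1 and 40.4 FPKM.

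On the log2(FPKM + 1) scale the difference of SII minus SIO was 8.37 for JGI 608569, 7.50 for JGI 506898 and 7.47 for JGI 519550. A total of 8906 genes reached 1 FPKM in 2 or more of the 4 libraries, and among them these differences stood in places 5, 14 and 15 from the top. The median over those genes was -0.11. All 3 Hsp12 genes passed this filter in every library. The SD of the log2 level between the 2 libraries of an area was at most 0.34 in SII and at most 0.34 in SIO for any of the 3 genes, a small part of the difference. The SIO value leaves out a further SIO library, described below, in which the 3 genes stood 3.03 to 3.29 log2 units higher.

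The order of the 3 levels was not the same in the areas. In both SII libraries JGI 608569 was highest, then JGI 519550, then JGI 506898. In both SIO libraries JGI 519550 was highest, then JGI 608569, then JGI 506898. The top pair lay close together in SII, at a ratio of 1.08 in replicate 1 and 1.24 in replicate 2, while the spread of the 2 replicates was a ratio of 1.104 for JGI 608569 and 1.28 for JGI 519550. JGI 608569 was thus ahead in both SII libraries, but by less than the replicate ratio of JGI 519550. In SIO the top gene stood above the next by 1.75 and 1.53, against replicate ratios of 1.42 for JGI 608569 and 1.24 for JGI 519550. JGI 519550 and JGI 506898 differed by 1.83 and 1.997 in the SII libraries and by 2.01 and 1.995 in the SIO libraries.

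On the FPKM scale the replicates moved in a shared direction. This depends on the scaling for JGI 608569, whose scaled read counts, described below, were 114736 and 116241 in SII replicates 1 and 2. All 3 genes were lower in SII replicate 2 than in SII replicate 1, at 0.906 of the level for JGI 608569, 0.716 for JGI 506898 and 0.783 for JGI 519550. In the hyphal area all 3 were higher in SIO replicate 2, by ratios of 1.42, 1.25 and 1.24 in the same order of genes. Over the 8906 genes tested the median absolute log2 difference between replicates was 0.36 in SII and 0.13 in SIO. The Hsp12 genes thus varied between the SII libraries about as much as other genes, with log2 differences from -0.14 to -0.48. They varied more than the median gene between the SIO libraries, with 0.31 to 0.48.

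In the order of all 11599 genes by FPKM, JGI 608569 was 8th in both SII libraries. In the SIO libraries it was in places 5030 and 4069. JGI 519550 was in place 10 of SII replicate 1 and 13 of SII replicate 2, against places 3673 and 3085 in SIO. JGI 506898 stood in places 27 and 42 in SII and, in the hyphal libraries, in places 5328 and 4702. All 3 thus stood among the most abundant transcripts of the sclerotial area and near the middle of the expressed genes of the hyphal area, where 8635 and 8592 genes had an FPKM of at least 1.

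**Figure D2:**
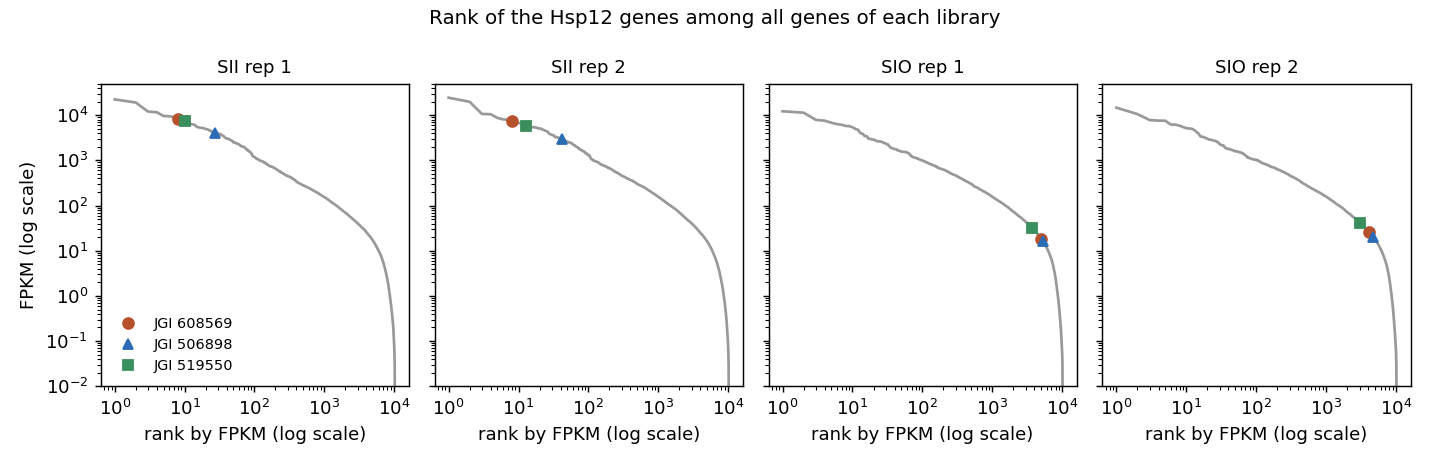
FPKM of every gene against its rank within each library, both on log axes, with the 2 SII libraries left of the 2 SIO libraries. Colours and symbols mark the 3 Hsp12 genes, which lie in places 8 to 42 in SII and in places 3085 to 5328 in SIO.

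Neighbours in the SII ranking had unrelated descriptions. In SII replicate 1, JGI 608569 stood between a UPF0057-domain gene, JGI 574539 (9119 FPKM), and a hypothetical protein, JGI 547800 (7585 FPKM). In SII replicate 2 it stood between JGI 545840, described as cyanovirin-N (7914 FPKM), and a hypothetical protein, JGI 536070 (6906 FPKM). Members of the UPF0057 family in yeast are small hydrophobic membrane proteins of the Pmp3 type, and another of them, JGI 538671, stood just above JGI 519550 in SII replicate 2 (6382 FPKM).

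Together the 3 genes took 2.13% of the summed FPKM in SII replicate 1 and 1.74% in SII replicate 2, against 0.00844% and 0.0109% in the SIO libraries. As recovered reads they were 1.29% and 1.05% of the reads assigned to genes in the SII libraries, or 319568 and 242665 reads, against 1252 and 1593 reads in the SIO libraries. Counting error at such read numbers was small beside the spread between replicates. The lowest count, that of JGI 506898 in SIO replicate 1, was 301 reads. JGI 608569 alone had 122323 and 103117 reads in SII, against 318 and 445 reads in SIO.

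Within the sum, JGI 608569 held 41.0% and 45.3% in the SII libraries, against 27.6% and 30.3% in the SIO libraries. JGI 519550 held 38.1% and 36.4% in SII, against 48.3% and 46.4% in SIO. The share of JGI 506898 was 20.9% and 18.2% in SII and 24.0% and 23.3% in SIO. JGI 519550 thus held the largest share in both SIO libraries. JGI 608569 held the largest in both SII libraries, where its lead in FPKM over JGI 519550 was smaller than the replicate ratio of JGI 519550. The 3 shares are parts of the same sum, so they are not separate results.

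Chaperones hold other proteins in a soluble or folded state, and the genes so described give the setting of the Hsp12 genes. Text patterns on the descriptions found 68 other chaperone genes, and all 68 passed the filter on FPKM. With the 3 Hsp12 genes they form a list of 71, of whose summed FPKM the Hsp12 genes made up 57.3% and 48.5% in the SII libraries and 0.733% and 0.852% in the SIO libraries. The other 68 genes summed to 15848 ± 1714 FPKM over the SII libraries and 9613 ± 726 FPKM over the SIO libraries (SD, n = 2), a ratio of 1.65. The 3 Hsp12 genes summed to 17841 ± 2506 FPKM in SII and 77.1 ± 14.0 FPKM in SIO, a ratio of 231.

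Each of the other genes was tested in a limma fit of log2(FPKM + 1) across all 8906 genes. Calls needed a p under 0.01 after Benjamini-Hochberg adjustment and a log2 difference of 1 or more in either direction. In that fit 22.4% of all genes tested were called, 10.3% higher and 12.2% lower in SII. The Hsp12 genes come from the same contrast, so no call is read for them. Of the 68 other chaperone genes, 15 were called higher and 12 lower in SII, and their median log2 difference was 0.26, beside -0.11 over all genes tested. A fit without SIO replicate 1 or without SIO replicate 2 assumes that the lone SIO library varies like the SII libraries. Such fits lost nearly all calls over all genes, and the 68 chaperone genes lost theirs with them. A fit without an SII library assumes in turn that the lone SII library varies like the SIO pair, whose replicates differed less. The SD of the log2 difference between replicates was 0.23 in SIO and 0.68 in SII. Fits of this kind made more calls over all genes, and no call is read from them. Under median-ratio scaling 15 of the 68 chaperone genes were higher and 7 lower. The balance over all genes turned to 980 higher and 744 lower, beside 914 higher and 1084 lower. At this size an exact permutation test of 1 gene would give a two-sided p of 0.33 or more, and the p-values here measure only the spread between these pooled samples.

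The small heat shock genes came nearest to the Hsp12 genes in size of difference. Small heat shock proteins of the Hsp20 family bind unfolding proteins and keep them from aggregating. Of 7 tested, 5 were called higher and 0 lower in SII, beside 10.3% and 12.2% of all genes tested. Their median log2 difference was 3.09. These calls too were lost, with nearly all calls over all genes, when either SIO replicate was left out. JGI 574167, similar to a 30 kDa heat shock protein, had 972 and 3179 FPKM in SII, against 12.6 and 14.1 FPKM in SIO (log2 difference 6.94, standard error 0.59, limma adjusted p = 0.00355). JGI 535891, similar to heat shock protein 30, had 166 and 536 FPKM in SII, against 2.30 and 2.06 FPKM in SIO (log2 difference 6.56, standard error 0.59, limma adjusted p = 0.00382). Both stood below all 3 Hsp12 genes in level in SII replicate 1 and in the SIO libraries, while in SII replicate 2 JGI 574167 stood above JGI 506898, at 2931 FPKM, and below the other 2.

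The other called small heat shock genes were smaller in difference. They were JGI 565447 (log2 difference 3.33, limma adjusted p = 0.00482), JGI 493813 (3.09, limma adjusted p = 0.00316) and JGI 544858 (2.07, limma adjusted p = 0.00331). JGI 511227 had 546 and 559 FPKM in SII, against 424 and 394 FPKM in SIO, and was not called (log2 difference 0.43, limma adjusted p = 0.0717). It was far above every Hsp12 gene in the hyphal area and far below them in the sclerotial area. JGI 500827 had 51.3 and 11.6 FPKM in SII, against 4.87 and 4.84 FPKM in SIO, and was not called either (log2 difference 2.13, limma adjusted p = 0.0641).

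**Figure D3:**
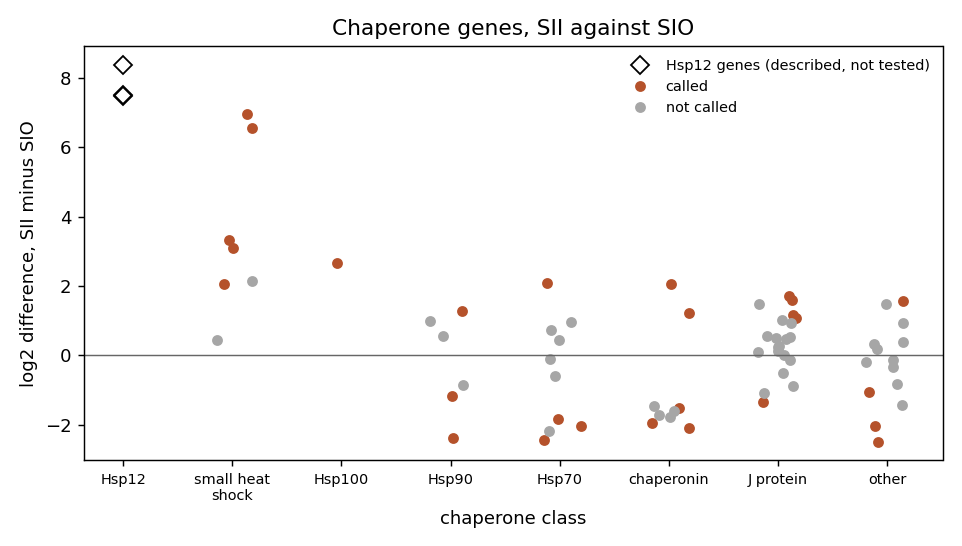
Log2 difference of SII minus SIO for the 3 Hsp12 genes (open diamonds, described and not tested) and the 68 other chaperone genes by class. Filled points in colour were called by limma and grey points were not. The Hsp12 genes lie between 7.47 and 8.37, above the highest of the other chaperones at 6.94.

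The small heat shock genes varied between the 2 SII libraries in both directions. In SII replicate 2, JGI 574167 stood at 3.27 times and JGI 535891 at 3.22 times its level in SII replicate 1, while the Hsp12 genes stood at 0.716 to 0.906 times. JGI 565447 stood at 1.60 times, JGI 544858 at 1.09 times and JGI 511227 at 1.02 times. JGI 493813, at 0.667 times, and JGI 500827, at 0.226 times, were lower in SII replicate 2, as the Hsp12 genes were. The sum of the 7 small heat shock genes was 2053 FPKM in SII replicate 1 and 4526 FPKM in SII replicate 2, against 478 and 451 FPKM in the SIO libraries. JGI 574167 alone made up most of the gap between the 2 SII sums, and with 1 pair of libraries it has no test.

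**Figure D4:**
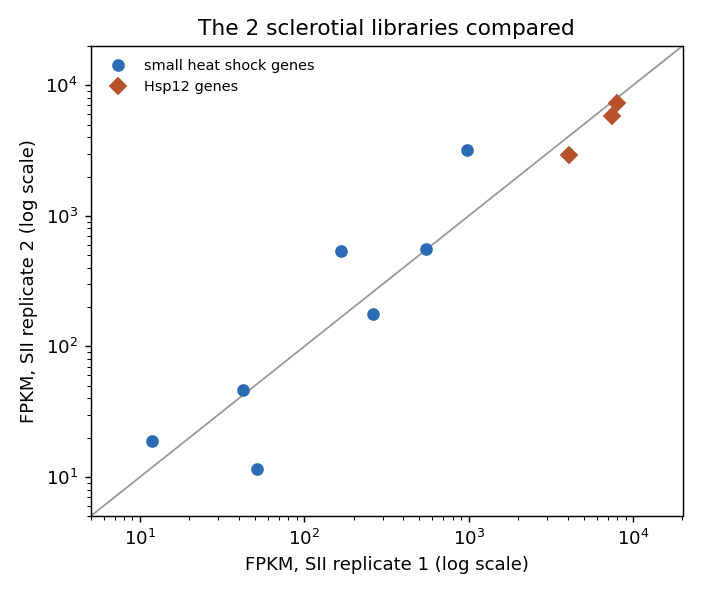
FPKM in SII replicate 2 against SII replicate 1, both on log axes, for the 3 Hsp12 genes (diamonds) and the 7 small heat shock genes (circles), with the line of equal values. The Hsp12 genes lie a little below the line, and JGI 574167 and JGI 535891 lie above it by 3.27 and 3.22 times.

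The larger chaperone classes held calls in both directions, as all genes tested did, with 10.3% higher and 12.2% lower in SII. The classes are small, and no count below was tested against those shares. The 1 gene of the Hsp100 class, JGI 486803, whose yeast counterpart takes protein aggregates apart, had 325 and 339 FPKM in SII, against 48.2 and 56.1 FPKM in SIO (log2 difference 2.65, standard error 0.16, limma adjusted p = 0.00205). Of 6 tested Hsp90 class genes 1 was higher and 2 lower. The higher one was JGI 531549, a match to the Hsp90 co-chaperone AHA1, and the lower ones were JGI 551489 and JGI 242906 (log2 difference of JGI 242906 -2.38, limma adjusted p = 0.00301). The most abundant gene of the class, JGI 481380, described as an Hsp82, had 2369 and 2457 FPKM in SII, against 1074 and 1347 FPKM in SIO, and missed the threshold on adjusted p (limma adjusted p = 0.0185).

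Of 10 tested Hsp70 class genes 1 was higher and 3 lower, beside 10.3% and 12.2% of all genes tested. JGI 531797, a match to the endoplasmic reticulum chaperone BiP, was the higher one, and JGI 511687, JGI 572629 and JGI 515014 were lower, with JGI 515014 at a log2 difference of -2.45 (limma adjusted p = 0.00482). The most abundant one, JGI 493970, had 4512 and 4448 FPKM in SII, against 2407 and 3032 FPKM in SIO (log2 difference 0.73, limma adjusted p = 0.0548), and was not called. Its log2 difference depended on scaling too, with 0.82 under median-ratio and 0.018 under quantile scaling. JGI 493970 was the most abundant chaperone gene of the hyphal area, where each Hsp12 gene was under 41 FPKM. JGI 534237, an Hsp70 gene for which the study also has primers, had 50.6 and 106 FPKM in SII, against 317 and 357 FPKM in SIO, and missed the threshold (log2 difference -2.18, limma adjusted p = 0.0124). It was called lower with the replicate number as a block (limma adjusted p = 0.00614). Without SII replicate 1 (-1.66) and without SII replicate 2 (-2.71) it was called too, but calls over all genes were more frequent there. In both of those fits JGI 537869 and JGI 500827 also changed to called, and in the first JGI 481380 did. Genes of the Hsp70 class that were called lower are described as actin-like ATPase domain proteins, a fold that Hsp70 proteins share with other proteins.

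Of 9 chaperonin genes 2 were higher and 3 lower in SII, beside 10.3% and 12.2% of all genes tested. Their median log2 difference was -1.60. Both higher ones belong to the mitochondrial type, namely Cpn10, JGI 501639 (218 and 213 FPKM in SII, against 48.9 and 53.0 FPKM in SIO, log2 difference 2.06, limma adjusted p = 0.00263), and GroL, JGI 482265 (log2 difference 1.23). All 3 lower ones, JGI 498201, JGI 562789 and JGI 519882, are described as or match subunits of T-complex protein 1, the chaperonin of the cytosol that folds actin and tubulin. JGI 519882, the zeta subunit, had a log2 difference of -2.09 (limma adjusted p = 0.00588).

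Of 21 J proteins, which deliver substrates to Hsp70, 4 were higher and 1 lower, beside 10.3% and 12.2% of all genes tested. The higher ones were JGI 556195, the Hsc20 co-chaperone of iron-sulfur protein assembly (log2 difference 1.72, limma adjusted p = 0.00401), JGI 562140, JGI 540464 and JGI 481684, and the lower one was JGI 556215. The most abundant J protein gene, JGI 537869, had 513.8 and 513.7 FPKM in SII, against 224 and 289 FPKM in SIO, and missed the threshold (log2 difference 1.01, limma adjusted p = 0.0142). Of 14 other genes described as chaperones 1 was higher and 3 lower, and several of these do not fold proteins in general. The higher one was JGI 533949, a match to a vacuolar transporter chaperone, a complex that in yeast makes polyphosphate (log2 difference 1.56, limma adjusted p = 0.00415). The lower ones were JGI 564141, a match to the mitochondrial BCS1 (-2.48, limma adjusted p = 0.00279), the prefoldin alpha subunit JGI 571613 and the tubulin cofactor B match JGI 407699. Called chaperone genes outside the rule for named genes were named after their values were seen.

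Of 5 genes tied by description or primer name to the yeast regulators of HSP12, 1 was called, which is near the 22.4% of all genes tested. No gene described as a heat shock factor was found by the text patterns. JGI 488708, described as the mitogen-activated protein kinase HOG1, had 1071 and 778 FPKM in SII, against 256 and 246 FPKM in SIO (log2 difference 1.86, standard error 0.21, limma adjusted p = 0.00556). The call was lost when either SIO library was left out, as nearly all calls over all genes were. Calls from fits with a lone SII library are not read here. JGI 553395, the gene whose primers the study names msn2, has zinc finger protein YER130C as its database match, which is another yeast gene than MSN2, so its standing as the Msn2 counterpart is uncertain. It had 130 and 106 FPKM in SII, against 141 and 153 FPKM in SIO. It was not called (log2 difference -0.32, standard error 0.17, limma adjusted p = 0.188).

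None of the 3 genes tied by description to cAMP-dependent protein kinase was called with all 4 libraries. The regulatory subunit JGI 120068 had 78.4 and 59.9 FPKM in SII, against 70.9 and 90.3 FPKM in SIO (log2 difference -0.22, limma adjusted p = 0.449). JGI 87044, a match to the kinase itself, had 83.7 and 39.2 FPKM in SII, against 28.5 and 30.8 FPKM in SIO (log2 difference 0.93, limma adjusted p = 0.112). JGI 578518, a match to the pathway protein Som1, had 30.9 and 40.3 FPKM in SII, against 69.4 and 66.0 FPKM in SIO (log2 difference -0.92, limma adjusted p = 0.0189). Without SII replicate 2 the log2 difference was 1.47 for JGI 87044 and -1.11 for JGI 578518. Without SII replicate 1 that of JGI 87044 was 0.39. These fits take their spread from the SIO pair alone, so no call is read from them. Transcript level does not measure the activity of a kinase or a transcription factor.

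Likeness of pattern was measured as the Euclidean distance between log2(FPKM + 1) profiles over the 4 libraries, each centred on its own mean, so that it rests on 4 values and on the contrast by which the Hsp12 genes were chosen. By this measure JGI 506898 and JGI 519550 were each other's nearest gene among all 8906, at a distance of 0.097. JGI 608569 stood farther off, at 0.906 from JGI 506898 and 0.917 from JGI 519550. For both of those it was in place 20 of the nearest genes.

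The 5 genes nearest to JGI 608569 were JGI 536552 (distance 0.390), JGI 573010 (0.441), JGI 508749 (0.460), JGI 571030 (0.514) and JGI 566905 (0.528). JGI 536552 matches the stress response protein ish1 and had 2362 and 2140 FPKM in SII, against 6.29 and 9.83 FPKM in SIO. JGI 566905 matches chitin synthase 2, which makes a cell wall polymer of fungi, and had 1659 and 1439 FPKM in SII, against 4.46 and 7.24 FPKM in SIO. The remaining 3 are expressed proteins with no described role.

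After each other, JGI 506898 and JGI 519550 shared JGI 493591, JGI 492034 and JGI 482247 as near genes, all without a described role. JGI 493591 had 4924 and 3103 FPKM in SII, against 16.5 and 21.2 FPKM in SIO, which places it beside JGI 506898 in level too. JGI 492034 had 6500 and 5074 FPKM in SII, against 30.4 and 42.6 FPKM in SIO, and stood just below JGI 519550 in SII replicate 1. The fifth gene of JGI 506898 was the chitin synthase match JGI 566905 (distance 0.444), and that of JGI 519550 was JGI 493572, a GroES-like protein (0.434) with 277 and 288 FPKM in SII, against 0.755 and 0.589 FPKM in SIO. GroES-like in this description names a fold found in alcohol dehydrogenases, so JGI 493572 is not counted among the chaperones.

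Actin and glyceraldehyde-3-phosphate dehydrogenase served the study as internal standards in PCR. The gene of each used for scaling here was picked by description and highest mean and was not matched to the study's primers. Both picked genes had less FPKM in both SII libraries than in both SIO libraries. The actin gene with the highest mean, JGI 532511, had 718 and 940 FPKM in SII, against 1856 and 1822 FPKM in SIO, a ratio of 0.451. Divided by it, the Hsp12 log2 differences were 9.60 for JGI 608569, 8.75 for JGI 506898 and 8.68 for JGI 519550. The dehydrogenase gene with the highest mean, JGI 187740, had 39.3 and 255 FPKM in SII, against 1643 and 1520 FPKM in SIO, and the differences divided by it were 12.41, 11.56 and 11.49 in the same order of genes. A second gene of that description, JGI 533001, had 135 and 119 FPKM in SII, against 110 and 148 FPKM in SIO, a ratio of 0.986.

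The deposited table also gives a mean scaled read count per area, and this gave smaller differences for the Hsp12 genes. For JGI 608569 the deposited means were 115488 in SII and 1110 in SIO, a ratio of 104.1 beside the 341 of the FPKM means. For JGI 506898 they were 57284 in SII and 1018 in SIO, a ratio of 56.3. For JGI 519550 they were 113876 in SII and 2370 in SIO, a ratio of 48.1. The SII mean could be written as the mean of the 2 SII libraries in whole reads, but the SIO mean could only be written with a further library beside the 2 SIO libraries.

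The Hsp12 genes were several times higher in that implied library than in the 2 SIO libraries with FPKM. Its scaled read count for JGI 608569 was 2674, against 263 and 392 in SIO replicates 1 and 2. For JGI 506898 it was 2477, against 249 and 328, and for JGI 519550 it was 5901, against 523 and 684. It thus stood above the mean of the 2 SIO libraries by 8.16, 8.59 and 9.78 times for the 3 genes, and made up 80.3%, 81.1% and 83.02% of the sum behind the deposited SIO mean. It was still far under SII, at 2.32%, 4.32% and 5.18% of the SII mean. With the implied library left out, an alternative chosen after seeing the data, the ratios of scaled counts were 353, 199 and 189.

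**Figure D5:**
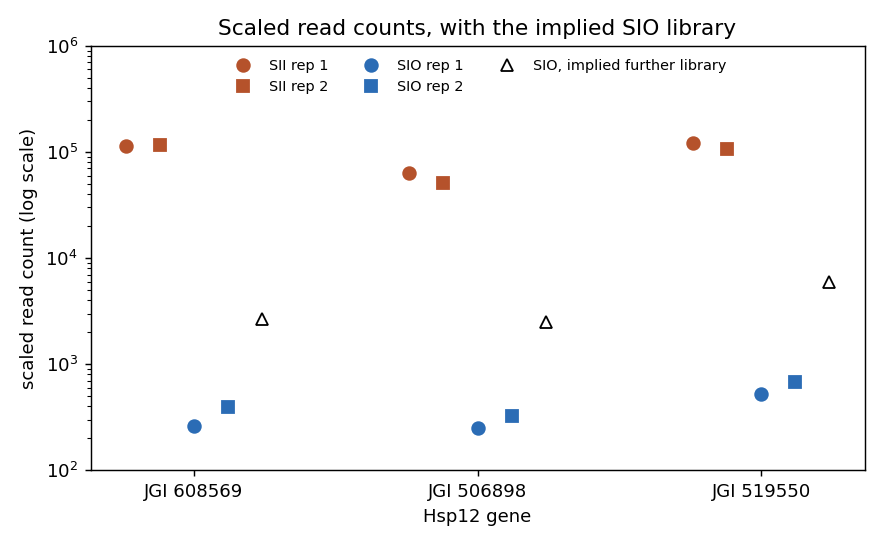
Scaled read count of the 3 Hsp12 genes on a log axis, for the 2 SII libraries, the 2 SIO libraries and the further SIO library that the deposited SIO mean implies (open triangles). The triangles lie between 2477 and 5901, above the SIO libraries at 249 to 684 and below the SII libraries at 50944 to 121387.

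The same gap was seen in other genes with a large difference between the areas. Over all 8906 genes tested, the median log2 ratio of the implied library to the mean of the 2 SIO libraries was -0.01. Over the 73 other genes with a log2 difference of at least 5 it was 2.44, and 71 of the 73 were above 0. The Hsp12 genes were at 3.03 for JGI 608569, 3.10 for JGI 506898 and 3.29 for JGI 519550, which placed them 40th, 37th and 28th among the 8906. These genes were chosen by a difference that contains the 2 SIO libraries, so this is a description. The cause of the gap was not tested, and the labels used here hold no sample for this library.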

How the data were processed

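RNA was sequenced as paired-end 150 bp reads from 2 SII and 2 SIO samples, and clean reads were mapped by the authors with TopHat2 2.1.0, as the submitters' processing notes say. The program that counted reads and computed FPKM is not given in the sources used here. The authors deposited FPKM per library for 11599 genes and, as a signal, 1 mean scaled read count per area. Their own fold changes and p-values in the same table were not used. Library names in the column headers match the sample titles only through their area and replicate number.

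The gene members and lists were chosen with earlier results of these data known. Whole reads per library were recovered from the FPKM and the mean scaled counts to within 0.01 of a read. They came to 24841181 and 23108142 reads in SII and 27993281 and 27579812 in SIO, and to 21730888 in the further library that the SIO mean implies. Of the values above 0, 100% came out whole within that tolerance. The further library was not used as a replicate.

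The 8906 genes that reached 1 FPKM in 2 or more libraries entered a limma fit (limma 3.58.1, R 4.3.3) on the log2(FPKM + 1) scale, with area as the only term and a mean-variance trend. The thresholds are those of the study, an adjusted p under 0.01 and an absolute log2 difference of at least 1. Tables and figures used pandas 2.3.3, numpy 2.4.6 and matplotlib 3.10.9. The fit was tested on simulated data. Chaperones and regulators were found by text patterns on the descriptions. Genes named were the 3 Hsp12 genes, every tested small heat shock gene, the 4 other genes with Hsp primers, the most abundant and most changed called gene of each other class, each regulator, the 5 genes nearest to each Hsp12 gene, rank neighbours in SII, and the scaling genes. Alternatives were another pseudocount, median-ratio and quantile scaling, other filters and thresholds, no trend, a replicate block, leaving out each library, limma-voom on recovered reads, and, for the Hsp12 genes, ratios to 2 scaling genes and the deposited mean scaled counts.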

Additional observations from a re-analysis of the deposited data

Results flagged for a closer look

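The scaled read counts of the Hsp12 genes in the further SIO library that the deposited mean implies are listed here because this library is outside the comparisons above and lay above both SIO libraries with FPKM. They were 2674 for JGI 608569, 2477 for JGI 506898 and 5901 for JGI 519550.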

How the results depend on the processing

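The log2 differences of the Hsp12 genes moved by less than the replicate SD of either area with a pseudocount of 0.1 and with median-ratio scaling. Quantile scaling gave 8.25 for JGI 608569, 7.23 for JGI 506898 and 7.28 for JGI 519550. Those moves were under the larger of the SDs of the 2 areas, but for JGI 608569 and JGI 506898 beyond the smaller. The replicate block gave 8.37 for JGI 608569, 7.50 for JGI 506898 and 7.47 for JGI 519550, which a balanced design fixes, and with 2 libraries per area leaving 1 out moves a mean by less than its SD by construction, so neither bears on stability. In the same order of genes they moved to 9.60, 8.75 and 8.68 as ratios to actin, to 12.41, 11.56 and 11.49 as ratios to glyceraldehyde-3-phosphate dehydrogenase, and to 6.70, 5.81 and 5.59 from the deposited mean scaled read counts, which include the further SIO library. None reversed.

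Calls among all genes numbered 1998, with 1950 under the replicate block and 1981 by limma-voom on recovered reads. The sources used here do not say whether a shared replicate number marks shared plates, and the correlation of their deviations across genes was 0.20. At an adjusted p under 0.05 there were 3262 calls. Without a filter limma made 0 calls over all genes and 0 for the chaperone, small heat shock and regulator lists, with 5305 genes at an unadjusted p under 0.05. Calls over all genes were 3254 without SII replicate 1, 3911 without SII replicate 2, 79 without SIO replicate 1 and 88 without SIO replicate 2. For the other chaperones, leaving out 1 library gave 0 to 22 higher and 0 to 20 lower, for the small heat shock genes 0 to 6 higher, and for the regulators 0 to 3. The zeros came from leaving out SIO replicate 1 or SIO replicate 2. The highest counts came from leaving out an SII library, where only the smaller spread of the SIO pair enters. Under median-ratio scaling 980 genes were higher and 744 lower, beside 914 higher and 1084 lower, and 7 chaperones were lower in place of 12. Having 2 libraries per area limits every standard error.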
